A study of Mus musculus and Rattus norvegicus with 30 samples.

Results

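The genes described here are 7 neuropeptide genes known for induction in injured sensory neurons: Gal (galanin), Npy (neuropeptide Y), Vip (vasoactive intestinal peptide), Nts (neurotensin), Adcyap1 (pituitary adenylate cyclase-activating polypeptide, PACAP), Cck (cholecystokinin) and Crh (corticotropin-releasing hormone). They were taken by gene symbol, with no threshold on a measured value but with earlier results of these data known, and 7 of 7 were found among the 54315 features of the mouse count table and among the 39281 features of the rat count table. Counts were high enough for testing for 6 of the 7 genes in mouse (all but Vip) and for 6 of the 7 in rat (all but Npy).

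Neuropeptides are short signalling peptides that are cut from longer precursor proteins, packed into dense-core vesicles and released to act on G protein-coupled receptors. Uninjured sensory neurons make peptides such as calcitonin gene-related peptide and substance P. After the peripheral axon is cut, many of these neurons switch on other peptides, of which galanin, neuropeptide Y and vasoactive intestinal peptide are the textbook examples, and the products can act on neighbouring neurons, glia and the dorsal horn.

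RNA was sequenced from whole dorsal root ganglia (DRG), which hold the cell bodies of sensory neurons together with their glia and other cells. Adult BALB/c and B10.D2 mice of both sexes had spared nerve injury (SNI), which severs the common peroneal and sural nerves and keeps the tibial branch of the sciatic nerve whole, or sham surgery, in which the branches were exposed and left undamaged, and the L3 and L4 DRG of 1 animal per library were taken after 28 days. From BALB/c there were 6 libraries after sham surgery and 4 after SNI, and from B10.D2 5 after each, all made from RNA depleted of ribosomal RNA. Male Wistar rats had L5 spinal nerve transection (SNT) or sham surgery, and each of the 4 sham and 4 SNT libraries was made from the L5 DRG of 3 pooled animals after 21 days. The rat libraries were made from polyadenylated RNA. L3 and L4 ganglia also hold neurons whose axons run in the spared tibial branch, whereas the whole L5 spinal nerve was cut in rat, so the share of injured neurons in a library differs between the models and was not measured. No age of the rats was given in the sources used here.

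Library totals were 29.99 to 41.88 M counts in mouse and 11.95 to 17.89 M in rat, where 3 counts in a library correspond to 0.0716 to 0.1 CPM (counts per M of the library's scaled total) and to 0.168 to 0.251 CPM. Neuron markers summed to between 6437 and 7740 CPM in the mouse libraries. Markers of skeletal muscle reached 1199 CPM in BALB/c sham library 50 and 473 CPM in BALB/c SNI library 49, and leaving out either changed no call of the 7 genes in the BALB/c injury comparison. On the first principal component of the rat data, sham library 4 was at -6.33 and SNT library 1 at 1.09, with the other sham libraries at -48.7 to -35.7 and the other SNT libraries at 30.6 to 49.9. The rat table covers part of the genome: of 10591 genes with at least 5 CPM in mouse that were matched by symbol, 3960 (37.4%) were listed at 0 in all 8 rat libraries, Actb among them. On mouse chromosome 9 this held for 0 of 638 matched genes and on chromosome 11 for 867 of 869. Of the mouse-map neighbours of the 7 genes, 0 of those matched within 2 Mb were listed at 0 in rat (28 neighbours of Npy, 54 of Gal, 36 of Cck, 13 of Vip, 10 of Crh, 5 of Nts and 1 of Adcyap1).

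On mm10 with GENCODE M21 the protein-coding genes lie on 6 chromosomes: Gal on chromosome 19 (3409915 to 3414544, minus strand), Npy on chromosome 6 (49822710 to 49829507, plus strand), Vip on chromosome 10 (5639218 to 5647617, plus strand), Nts also on chromosome 10 (102481756 to 102490486, minus strand), Adcyap1 on chromosome 17 (93199017 to 93206537, plus strand), Cck on chromosome 9 (121489824 to 121495694, minus strand) and Crh on chromosome 3 (19693401 to 19695396, minus strand). The values cover all exons of a gene. Promoter windows of RefSeq on GRCm38.p6, from 250 bases before the start to 50 bases after it, were held for 6 of the 7 genes, all but Crh. The bases before the start that lie outside the gene as GENCODE gives it are printed for 4 genes on which the results turn, 5′ to 3′ on the gene's own strand: Gal, Npy and Nts, which rose in both mouse strains, and Vip, which rose in rat. These are 250 bases for Gal, Npy and Vip and 182 for Nts, whose RefSeq start lies 68 bases inside the gene as GENCODE gives it. Capitals mark matches on either strand to the half-site of the cAMP response element (TGACG) or to the AP-1 site (TGANTCA).
Gal (chr19:3414545-3414794, minus): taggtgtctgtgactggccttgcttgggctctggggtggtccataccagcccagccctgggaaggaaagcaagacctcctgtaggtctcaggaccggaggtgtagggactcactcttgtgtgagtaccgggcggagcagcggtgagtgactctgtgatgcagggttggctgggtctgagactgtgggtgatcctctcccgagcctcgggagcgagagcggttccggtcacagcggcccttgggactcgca
Npy (chr6:49822460-49822709, plus): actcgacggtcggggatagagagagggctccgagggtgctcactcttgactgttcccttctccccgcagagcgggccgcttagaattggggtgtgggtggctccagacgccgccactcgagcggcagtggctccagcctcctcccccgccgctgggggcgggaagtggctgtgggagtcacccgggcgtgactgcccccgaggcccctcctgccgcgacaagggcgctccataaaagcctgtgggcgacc
Nts (chr10:102490487-102490668, minus): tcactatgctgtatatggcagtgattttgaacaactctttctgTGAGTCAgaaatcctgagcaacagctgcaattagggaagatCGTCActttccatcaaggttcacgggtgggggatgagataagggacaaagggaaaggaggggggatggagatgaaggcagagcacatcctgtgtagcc
Vip (chr10:5638968-5639217, plus): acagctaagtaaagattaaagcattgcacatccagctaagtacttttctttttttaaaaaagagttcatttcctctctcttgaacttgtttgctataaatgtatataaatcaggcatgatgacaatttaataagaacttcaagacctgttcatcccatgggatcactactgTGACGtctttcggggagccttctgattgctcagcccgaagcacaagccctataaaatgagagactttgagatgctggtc

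Of 32851 promoter windows, 20.8% held the half-site TGACG, and 5 of the 6 genes with a window did (Gal, Vip, Nts, Adcyap1 and Cck). The match of Gal lies 19 bases after the start, outside the printed stretch, and that of Vip at base -79 before it. The AP-1 letters TGANTCA, present in 7.81% of all windows, matched in 1 gene, Nts, at base -207. The full cAMP response element TGACGTCA (1.79% of windows), which holds the half-site on both strands, and the STAT letters TTCNNNGAA (8.3% of windows) were not in the window of any of the 6 genes, and the TATA box letters TATAAA (13.6% of windows) were in those of Vip and Adcyap1. The window of Npy held none of these motifs. A match is a description of letters and not a bound site.

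The mouse comparisons asked how SNI changed each peptide gene within a strain, and whether the change differed between BALB/c and B10.D2. After SNI in BALB/c, 5 of the 7 genes rose (Npy, Gal, Crh, Nts and Adcyap1), against 4.82% of 24685 features tested that were called higher at an edgeR adjusted p-value under 0.05, and all 5 were higher in every SNI library than in every sham library, as were 4.30% of features. In B10.D2, 4 of the 7 rose (Npy, Nts, Crh and Gal), against 2.10% of features called higher, and all 4 were without overlap between the groups, as were 2.41% of features. In the strain by injury interaction 1 of the 7, Gal, was called, where 6 features (0.0243%) were. In bulk tissue, more cells that express a gene and more RNA of it per cell cannot be told apart.

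**Figure D1:**
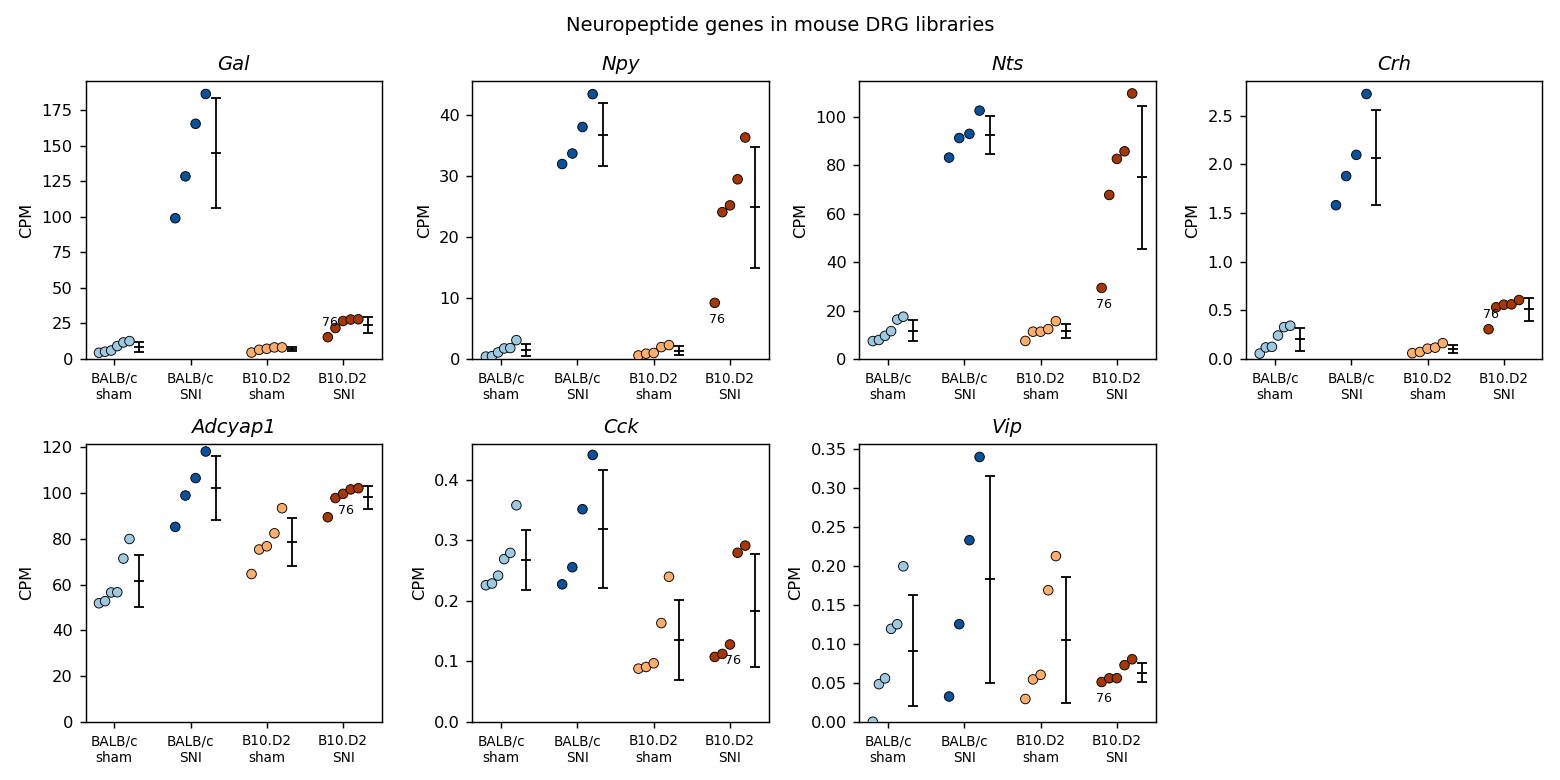
Levels of the 7 genes in each mouse library, in CPM on linear axes that start at 0 and differ between panels, with bars at the mean ± SD of each group and SNI library 76 of B10.D2 marked. Gal in the 4 BALB/c SNI libraries sits between 98.97 and 186 CPM, above the 5 B10.D2 SNI libraries (15.4 to 27.95 CPM), whereas Npy and Nts overlap between the strains after SNI.

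Gal encodes galanin, a peptide of few sensory neurons at rest and of many after axotomy, which acts on the receptors Galr1 to Galr3. In BALB/c sham libraries Gal was at 4.42 to 12.6 CPM with a median of 7.53 CPM, and in the 4 SNI libraries it was at 165, 186, 128 and 98.97 CPM. In B10.D2 it was at 4.56, 7.21, 6.49, 8.17 and 8.18 CPM in sham and at 26.7, 15.4, 27.95, 27.8 and 21.8 CPM in SNI. Every SNI library thus lay above every sham library in both strains, and every BALB/c SNI library lay above every B10.D2 SNI library. Gal rose 18.1-fold in BALB/c (log2 4.18, SE 0.254, edgeR adjusted p 1.98e-09) and 3.49-fold in B10.D2 (log2 1.80, SE 0.261, edgeR adjusted p 2.16e-04). The change in B10.D2 was 5.18-fold smaller than that in BALB/c, a difference of -2.37 on the log2 scale (95% interval -3.12 to -1.63, edgeR adjusted p 0.0140). It ranged from -2.54 to -2.18 over 20 fits that each left out 1 library and was called in all 20. In males alone it was -1.82 (edgeR adjusted p 0.899) and in females alone -3.01 (edgeR adjusted p 0.178), so neither sex alone passed the threshold.

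The level of Gal in sham did not differ detectably between the strains, with a log2 difference of -0.22 (95% interval -0.76 to 0.33, edgeR adjusted p 0.628). After SNI Gal was 6.03-fold lower in B10.D2 than in BALB/c (log2 -2.59, SE 0.250, edgeR adjusted p 9.02e-08). Within SNI the strain difference was called in 20.8% of features, and 2 of the 7 genes, Gal and Crh, were called there and did not overlap between the strains, as 18.3% of features did not. These comparisons share their SNI and sham libraries with the interaction and are not separate evidence of it.

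Npy encodes neuropeptide Y, made by sympathetic neurons and, after axotomy, by large sensory neurons. It was at 0.401 to 3.10 CPM in BALB/c sham libraries with a median of 1.41 CPM, and at 43.5, 38.1, 32.0 and 33.7 CPM in SNI. In B10.D2 it was at 0.877, 2.29, 1.96, 0.585 and 0.990 CPM in sham and at 36.3, 9.21, 24.1, 25.2 and 29.5 CPM in SNI. The groups did not overlap in either strain. Npy rose 26.4-fold in BALB/c (log2 4.72, SE 0.392, edgeR adjusted p 1.24e-07), rank 7 of 24685 features by log2 change, and 19.4-fold in B10.D2 (log2 4.28, SE 0.415, edgeR adjusted p 4.93e-06), rank 10. The interaction was -0.45 (95% interval -1.66 to 0.77, edgeR adjusted p 1).

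Sympathetic neurons also make Npy, so their markers were read beside it. Dbh, which makes noradrenaline, was at 0 to 1 counts in BALB/c sham libraries and at 2 to 8 in SNI, and at 0 to 8 and 0 to 10 counts in B10.D2 sham and SNI. Phox2a was at 0 to 1 counts in BALB/c sham and at 1 to 9 in SNI, and at 0 to 1 in both B10.D2 groups. Both Dbh and Phox2a were thus higher on average in BALB/c SNI than in sham, at counts too low for the test. Dbh was also higher on average in B10.D2 SNI (0.176 CPM) than in B10.D2 sham (0.0703 CPM). Hand2 was at 0 to 2 counts in both BALB/c groups, and at 0 to 106 counts in B10.D2 sham and 0 to 91 in B10.D2 SNI. The part of these markers in the result was not tested. The summed level of the 7 sympathetic markers, most of it Th, which sensory neurons also express, was 29.3 to 63.5 CPM in BALB/c sham, 32.8 to 66.2 CPM in BALB/c SNI, 66.2 to 106.5 CPM in B10.D2 sham and 89.4 to 138.2 CPM in B10.D2 SNI. None of the 3 sympathetic markers tested (Th, Slc6a2 and Chrna3) was called in either SNI comparison.

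Nts encodes neurotensin, a peptide with actions on pain circuits through Ntsr1 and Ntsr2. It was at 7.42 to 17.5 CPM in BALB/c sham libraries with a median of 10.6 CPM, and at 93.1, 91.3, 83.3 and 103 CPM in SNI. In B10.D2 it was at 12.4, 15.6, 11.3, 7.48 and 11.3 CPM in sham and at 109.8, 29.4, 82.7, 67.8 and 85.9 CPM in SNI. Again no SNI library reached down to the sham range. Nts rose 8.04-fold in BALB/c (log2 3.01, SE 0.260, edgeR adjusted p 1.90e-07) and 6.84-fold in B10.D2 (log2 2.77, SE 0.272, edgeR adjusted p 4.93e-06), with an interaction of -0.23 (95% interval -0.999 to 0.53, edgeR adjusted p 1).

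Crh encodes corticotropin-releasing hormone, best known as the hypothalamic peptide that drives the stress axis. It was low throughout, with 2 to 12 counts in BALB/c sham libraries and 61 to 84 counts in SNI, and with 2 to 6 counts in B10.D2 sham and 12 to 25 counts in SNI. In CPM it was at 2.72, 1.88, 1.58 and 2.10 in the BALB/c SNI libraries against a median of 0.183 in sham, and at 0.558, 0.306, 0.606, 0.562 and 0.532 in B10.D2 SNI against 0.117, 0.0603, 0.163, 0.106 and 0.0724 in sham. The groups did not overlap in either strain. Crh rose 10.1-fold in BALB/c (log2 3.34, SE 0.280, edgeR adjusted p 1.36e-07) and 5.03-fold in B10.D2 (log2 2.33, SE 0.365, edgeR adjusted p 4.57e-04), where females alone gave a log2 change of 1.83 (edgeR adjusted p 0.162). After SNI it was 3.88-fold lower in B10.D2 (log2 -1.96, SE 0.263, edgeR adjusted p 9.26e-06), but the interaction was not called, at -1.01 (95% interval -2.09 to 0.07, unadjusted p 0.0652, edgeR adjusted p 1). In sham Crh was 0.95 lower in B10.D2 on the log2 scale (edgeR adjusted p 0.108), and this was called in 1 of 11 fits that left out a library, the one without BALB/c sham library 56 (log2 -1.11, edgeR adjusted p 0.0412).

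Adcyap1 encodes PACAP, which acts on Adcyap1r1, Vipr1 and Vipr2. It was the member with the most counts at rest, at 51.8 to 79.9 CPM in BALB/c sham libraries with a median of 56.6 CPM and at 85.2, 98.9, 107 and 118 CPM in SNI. In B10.D2 it was at 64.6, 82.4, 75.3, 76.7 and 93.4 CPM in sham and at 97.8, 99.7, 89.5, 102 and 102 CPM in SNI. The BALB/c groups did not overlap, and in B10.D2 the highest sham library lay above the lowest SNI library. Adcyap1 rose 1.66-fold in BALB/c (log2 0.73, SE 0.113, edgeR adjusted p 1.85e-04), and the fit on males alone gave a similar log2 change of 0.68 that was not called (edgeR adjusted p 0.121). In B10.D2 the log2 change was 0.33 (SE 0.113, edgeR adjusted p 0.108), and it was called without a filter on low counts (edgeR adjusted p 0.0328) and with B10.D2 fitted alone (edgeR adjusted p 0.0292). The interaction was -0.40 (95% interval -0.74 to -0.07, unadjusted p 0.0210, edgeR adjusted p 1).

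Cck encodes cholecystokinin, which acts on Cckar and Cckbr, and in mouse it stayed at 3 to 17 counts per library. Its level was 0.267 ± 0.0494 CPM (SD, n = 6) in BALB/c sham, 0.318 ± 0.0972 CPM (SD, n = 4) in BALB/c SNI, 0.135 ± 0.0660 CPM (SD, n = 5) in B10.D2 sham and 0.183 ± 0.0932 CPM (SD, n = 5) in B10.D2 SNI. The groups of each strain overlapped, and the log2 change was 0.24 (95% interval -0.34 to 0.81, edgeR adjusted p 0.671) in BALB/c and 0.31 (95% interval -0.37 to 0.995, edgeR adjusted p 0.738) in B10.D2. Vip, a relative of PACAP that shares its Vipr1 and Vipr2 receptors, was at 0 to 12 counts per mouse library and did not pass the filter. Its levels of 0.0914 ± 0.0709 CPM (SD, n = 6) in BALB/c sham, 0.183 ± 0.133 CPM (SD, n = 4) in BALB/c SNI, 0.105 ± 0.0807 CPM (SD, n = 5) in B10.D2 sham and 0.0632 ± 0.0126 CPM (SD, n = 5) in B10.D2 SNI were near that of 3 counts, so that a change of Vip was not detectable at this depth. Fitted without the filter it gave edgeR adjusted p-values of 0.465 and 0.771.

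Between the strains in sham surgery, 2 of the 7 genes were called, against 21.6% of features, both with overlapping groups. Adcyap1 was 1.27-fold higher in B10.D2 (log2 0.35, edgeR adjusted p 0.0243) and Cck 1.90-fold lower (log2 -0.92, edgeR adjusted p 0.0366). Neither held throughout. Adcyap1 lost the call without BALB/c sham library 50, 51 or 55 or B10.D2 sham library 88, at log2 0.28 to 0.32 and edgeR adjusted p-values of 0.0542 to 0.0855. Cck lost it in 7 of 11 such fits, without BALB/c sham library 50, 51 or 71 or B10.D2 sham library 58, 60, 67 or 88, at log2 -0.91 to -0.74 and edgeR adjusted p-values of 0.0529 to 0.142. Npy (log2 -0.10) and Nts (log2 -0.03) had edgeR adjusted p-values of 0.921 and 0.951.

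Whether the change after SNI differed between the sexes was tested in a model with a sex by surgery term. In edgeR 0 of 25143 features were called (0%), with 1353 at an unadjusted p-value under 0.05, and DESeq2 called 1. The log2 change in males minus that in females was -0.41 for Gal (95% interval -1.16 to 0.34), -0.23 for Npy (95% interval -1.48 to 1.02) and -0.41 for Nts (95% interval -1.18 to 0.36). With Adcyap1 (-0.03) and Cck (-0.50) the edgeR adjusted p-values were 0.922 to 0.986. For Crh the difference was 0.0054, so small that the SE, taken as the log2 change over the root of F, was not usable.

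Levels of different genes were compared in mouse per length, as CPM per kilobase of merged exons, which were 566 bases long in Npy and 3777 bases in Adcyap1 at the extremes. In sham Adcyap1 came first in both strains, with 16.3 ± 3.03 CPM per kilobase (SD, n = 6) in BALB/c and 20.8 ± 2.79 (SD, n = 5) in B10.D2. Gal and Nts followed at 8.79 to 10.3 CPM per kilobase with overlapping ranges, then Npy at 2.37 to 2.53, and Cck, Crh and Vip were each at 0.204 or lower. After SNI the order changed and differed between the strains. In BALB/c Gal stood first at 184 ± 49.2 CPM per kilobase (SD, n = 4), above every library's Nts (74.2 ± 6.39) and Npy (65.03 ± 9.04), which overlapped each other. In B10.D2 Nts (60.2 ± 23.8), Npy (43.9 ± 17.6), Gal (30.4 ± 6.85) and Adcyap1 (26.0 ± 1.36, all SD, n = 5) followed each other with overlapping ranges between neighbours.

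**Figure D2:**
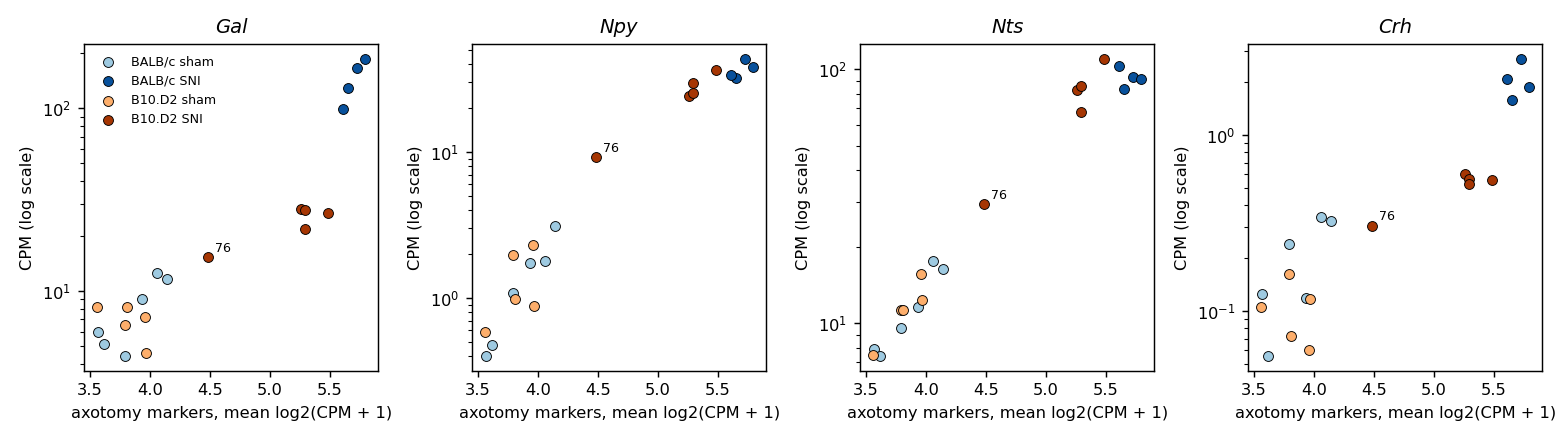
Gal, Npy, Nts and Crh in CPM on a log axis against the mean log2(CPM + 1) of 10 axotomy markers, each point a mouse library coloured by strain and surgery, with B10.D2 SNI library 76 marked. Library 76 is the lowest of its group on both axes, and Gal and Crh in the 4 BALB/c SNI libraries lie above the other libraries.

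Axotomy markers were read beside these values, since they rise in neurons whose axon is cut. All 10 markers rose in BALB/c (median log2 1.64 beside 0.0033 over all features), where 4.82% of features were called higher. In B10.D2 9 of 10 rose (median 1.10 beside 0.0076), where 2.10% of features were called higher. The interaction called 0 of 10 (median -0.40). It called only 6 features (0.0243%) in all, so this count cannot show whether the rise of the markers differed between the strains. Their mean log2(CPM + 1) was 5.61 to 5.79 in BALB/c SNI and 4.49 to 5.49 in B10.D2 SNI, so the strains did not overlap, and 3.56 to 4.14 in all sham libraries. After SNI 4 of the 10 were called lower in B10.D2 than in BALB/c (Sox11, Gadd45a, Stmn4 and Flrt3), where 20.8% of features were called in either direction. Atf3, a transcription factor widely used as an axotomy marker, had an interaction of -0.55 (SE 0.410, edgeR adjusted p 1) beside -2.37 for Gal. B10.D2 SNI library 76 was lowest of its group on the index (4.49) and also for Gal, Npy, Nts and Crh. Over 10 fits that each left out 1 B10.D2 library, 76 among them, the log2 changes were 1.69 to 1.92 for Gal, 4.06 to 4.55 for Npy, 2.56 to 2.95 for Nts and 2.18 to 2.62 for Crh, and all 4 genes were called in every fit. The part of the marker level in the strain difference of Gal was not tested.

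The genes most like each member over the 20 mouse libraries were listed by the Pearson correlation of log2(CPM + 1), a description in which the points share strain, surgery and sex. The 3 genes most like Npy were Sprr1a (r = 0.993), Nts (r = 0.991) and the orphan receptor gene Gpr151 (r = 0.987), and those most like Nts were Npy, the cholesterol transporter gene Abca1 (r = 0.989) and Cckbr (r = 0.988). For Gal they were the channel gene Pkd2l1 (r = 0.976), Sprr1b (r = 0.968) and Crh (r = 0.963), and for Crh they were Gal, the zinc transporter gene Slc30a3 (r = 0.962) and Sprr1b (r = 0.962). These partners were low, with means of 0.1025 CPM for Sprr1b, near the level of 3 counts, 0.385 CPM for Slc30a3 and 0.724 CPM for Pkd2l1. Gal was less alike to Npy (r = 0.886) and Nts (r = 0.869). Adcyap1 was most like Cacna2d1, the calcium channel subunit that gabapentin binds (r = 0.937), Hmgn3 (r = 0.911) and Sertm1 (r = 0.899). Cck, at a few counts per library, was most like Esm1 (r = 0.914), Tlr4 (r = 0.891) and Mical2 (r = 0.868).

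The rat comparison asked which of the genes changed in L5 DRG after SNT. Of the 7 genes 4 rose (Vip, Cck, Gal and Adcyap1), against 12.3% of 13690 features tested that were called higher, and 3 of these (Vip, Cck and Gal) were higher in every SNT library than in every sham library, as were 12.2% of features.

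**Figure D3:**
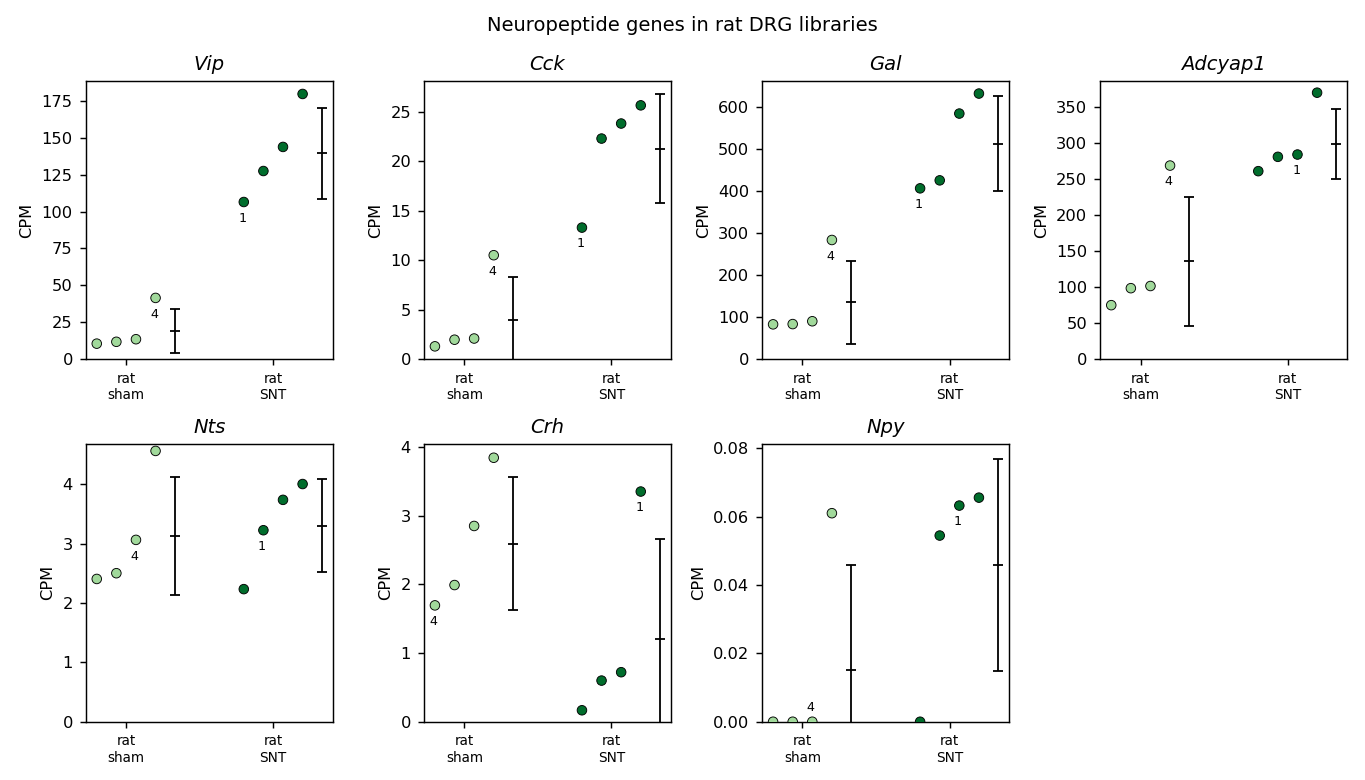
Levels of the 7 genes in each rat library, in CPM on linear axes that start at 0 and differ between panels, with bars at the mean ± SD of each group, drawn down to 0 where they would pass it, and sham library 4 and SNT library 1 marked. Sham library 4 is the highest sham library for Vip, Cck, Gal and Adcyap1, and Npy is at 0 or 1 count throughout.

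Vip was at 13.4, 10.4, 11.7 and 41.4 CPM in sham and at 106, 127, 144 and 180 CPM in SNT, a 7.22-fold rise (log2 2.85, SE 0.427, edgeR adjusted p 0.0104). Cck was at 2.07, 1.95, 1.28 and 10.49 CPM in sham and at 13.3, 22.3, 23.8 and 25.6 CPM in SNT, a 5.32-fold rise (log2 2.41, SE 0.576, edgeR adjusted p 0.0169). Gal was at 82.7, 90.1, 83.4 and 284 CPM in sham and at 407, 585, 426 and 633 CPM in SNT, a 3.80-fold rise (log2 1.93, SE 0.406, edgeR adjusted p 0.0131). For each of these genes sham library 4 stood well above the other sham libraries and below the SNT libraries. The axotomy markers moved with it, with a mean log2(CPM + 1) of 3.93 in sham library 4 against 2.98 to 3.14 in the other sham libraries and 4.14 to 4.52 in SNT. So did the summed macrophage markers, at 245 CPM in sham library 4 against 60.6 to 101 CPM in the other sham libraries and 204 to 273 CPM in SNT, with 3 of the 5 listed at 0. Of the 4 satellite glia markers only Apoe was counted. Apoe was at 11771 CPM in sham library 4, 7665 to 7977 CPM in the other sham libraries and 5941 to 8103 CPM in SNT. The part of these markers in the values was not tested. Without sham library 4 and SNT library 1, an alternative chosen after seeing the data, the log2 changes were 3.67 for Vip, 3.76 for Cck and 2.69 for Gal, and 5 of the 7 genes were called, Crh as lower.

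Adcyap1 was at 74.7, 101, 98.2 and 268 CPM in sham and at 284, 260.5, 280.4 and 369 CPM in SNT, so that sham library 4 reached into the SNT range. The rise was 2.20-fold (log2 1.14, SE 0.356, edgeR adjusted p 0.0399). Of 8 fits with 1 library dropped, 2 called it, those without sham library 4 (log2 1.72, edgeR adjusted p 5.33e-04) and without SNT library 1. The call was lost without sham library 1, 2 or 3 or SNT library 2, 3 or 4 (log2 0.96 to 1.21, edgeR adjusted p 0.0677 to 0.108).

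Nts and Crh were not called in rat, and Npy was not tested. Nts was at 2.40, 2.50, 4.56 and 3.06 CPM in sham and at 3.22, 2.23, 4.002 and 3.74 CPM in SNT, a log2 change of 0.07 (95% interval -0.52 to 0.67, edgeR adjusted p 0.859). Crh was at 1.99, 3.84, 2.85 and 1.69 CPM in sham and at 3.35, 0.599, 0.167 and 0.721 CPM in SNT, a log2 change of -1.13 (95% interval -2.61 to 0.35, edgeR adjusted p 0.221). SNT library 1 decided this value, for without it the SNT libraries all lay below the sham libraries, the log2 change was -2.40 and Crh was called lower (edgeR adjusted p 0.00441). Npy was at 0 or 1 count in each of the 8 libraries, below the level of 3 counts, and no fold is given. Expressed genes such as Actb are listed at 0 in this table, but 0 of the 28 matched mouse-map neighbours of Npy were. The value of Npy alone does not show that it was absent from rat DRG, and the handling of Npy in the rat alignment and annotation was not tested.

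**Figure D4:**
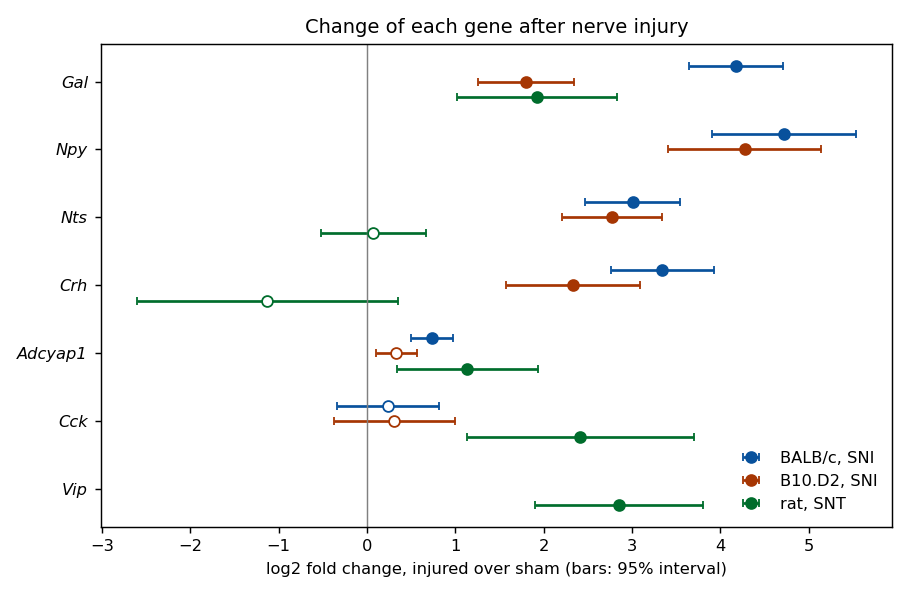
Log2 fold change of injured over sham for each gene in BALB/c (blue), B10.D2 (orange-brown) and rat (green), with bars for the 95% interval of edgeR and filled symbols for an adjusted p-value under 0.05. Npy and Nts are far from 0 in both mouse strains, Vip and Cck in rat, and Gal in all 3 comparisons with its largest change in BALB/c, while Vip in mouse and Npy in rat were not tested.

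Side by side, Gal was called higher in both mouse strains and in rat, and Adcyap1 in BALB/c and rat. Nts and Crh were called higher in both mouse strains and not in rat, and Cck in rat and not in mouse. Npy was called in both mouse strains and was not tested in rat, and Vip was called in rat and did not pass the filter in mouse. The difference between species was not tested, since the models, ganglia, days, sexes and library types differed, and fold changes cannot be set against each other as a species effect.

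The receptors of the 7 peptides were read from a list of 18 genes, of which 16 were tested in mouse. In BALB/c 3 rose and 1 fell (median log2 0.27 beside 0.0033 over all features, of which 4.82% were called higher and 4.87% lower). Cckbr rose from 0.988 to 12.7 CPM (log2 3.76, SE 0.407, edgeR adjusted p 2.83e-06), Cckar by 0.61 on the log2 scale and Npy2r, named after its values were seen, by 0.40, and Ntsr2 fell by 0.87. In B10.D2 3 rose and 1 fell (median 0.32 beside 0.0076, with 2.10% of features called higher and 2.48% lower). Cckbr rose from 0.506 to 7.79 CPM (log2 4.08, SE 0.469, edgeR adjusted p 1.99e-05), Cckar by 0.45 and Npy1r, named after its values were seen, by 0.47, and Crhr1 fell by 0.87. Both receptors of cholecystokinin thus rose in mouse while Cck itself stayed at a few counts. In rat 7 of 16 listed receptors were at 0 in every library, Galr1, Galr2, Npy1r, Cckar and Crhr1 among them. The median of the 8 tested was -0.44 beside 0.0027 over all features. Where 12.3% of features were called higher and 15.1% lower, 0 of these 8 receptors fell and 2 rose. These were Cckbr, from 4.44 to 23.6 CPM (log2 2.39, SE 0.405, edgeR adjusted p 0.0107), and Npy2r (log2 0.79, SE 0.247, edgeR adjusted p 0.0396). The interaction called 0 of 16 receptors.

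Genes that process peptide precursors or build dense-core granules were not called higher in any injury comparison. In BALB/c 0 of 13 rose and 4 fell by 0.22 to 0.32 on the log2 scale, namely Cadps, which primes dense-core vesicles for release, the granins Chga and Chgb, the latter named after its values were seen, and the prohormone convertase Pcsk2. In B10.D2 0 rose and 2 fell, Chga by 0.31 and Cadps by 0.16. The share of all features called lower was 4.87% in BALB/c and 2.48% in B10.D2. In rat 0 of 10 tested rose and 6 fell, against 15.1% of features called lower, with a median of -1.03, among them Cadps2 by 1.45, Scg5 by 1.08 and Pcsk2 by 0.98. Of the neuron markers tested in rat, 3 of 4 fell with them (Avil by 1.42, Isl1 by 1.09 and Elavl4 by 0.71). The most abundant, Prph, did not, at 4444 CPM in sham and 4578 CPM in SNT on average. Summed neuron markers overlapped, at 4858 to 7096 CPM in sham and 3826 to 6489 CPM in SNT. In each mouse strain 1 of 8 neuron markers fell (Snap25, by 0.51 after SNI of BALB/c and by 0.43 after SNI of B10.D2). The part of a lower neuronal share in these values was not tested.

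Other neuropeptides of sensory neurons were read from a list of 12. Beside them, 4.82% of all features were called higher in BALB/c, and in rat 12.3% were called higher and 15.1% lower. Of 9 tested in mouse, 1 rose in BALB/c (Pdyn, the precursor of dynorphin, from 0.221 to 0.513 CPM, log2 1.13, edgeR adjusted p 0.0182), and 0 rose or fell in B10.D2. In rat Pdyn rose from 1.28 to 3.98 CPM (log2 1.63, edgeR adjusted p 0.0129), and 2 of 8 tested fell, Nmb (neuromedin B) by 2.57 and Calcb (a calcitonin gene-related peptide gene) by 1.74. The list summed to 1262 to 1888 CPM in sham. In SNT it summed to 1384 CPM in library 1 and to 136, 175 and 427 CPM in the others. Calca, also a calcitonin gene-related peptide gene, averaged 1020 CPM in sham and 292 CPM in SNT (36.3 to 868 CPM). Tac1, the gene of substance P, averaged 295 CPM in sham and 105 CPM in SNT (40.5 to 244 CPM). Neither Calca nor Tac1 was called. Among the closest relatives of the 7 genes, named after their values were seen, the Crh relative Ucn (urocortin) rose in BALB/c (log2 4.14, edgeR adjusted p 1.82e-06), in B10.D2 (log2 3.54, edgeR adjusted p 1e-04) and in rat, from 3.62 to 14.3 CPM (log2 1.98, edgeR adjusted p 0.0117). Ucn2 rose in BALB/c (log2 3.91) and B10.D2 (log2 4.38). The neuromedin gene Nms, which was listed with these relatives but belongs to the family of none of the 7 genes, rose in B10.D2 (log2 1.63). Of the 4 genes on this list that were tested, the interaction called 0. In mouse the fold changes of Ucn and Ucn2 rest on sham levels of at most 0.0933 CPM, near that of 3 counts.

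Markers of other cells were read in the same way, beside 4.82% of all features called higher in BALB/c, 2.10% in B10.D2 and 12.3% in rat. In BALB/c 4.87% of features were called lower. In BALB/c 1 of 5 Schwann cell markers, 2 of 5 macrophage markers (Cd68 by 0.62 and Csf1r by 0.47), 1 of 4 fibroblast and 1 of 4 endothelial markers rose, 0 of 4 satellite glia and 0 of 4 muscle markers did, and 1 of 2 spinal cord markers tested fell (Aqp4 by 0.44). In B10.D2 1 of 4 fibroblast markers rose, and none of the other markers of these cells was called. In rat, where most of these markers were listed at 0, 1 of 2 Schwann cell and 1 of 2 fibroblast markers tested rose and none of the others tested was called. In rat the summed sympathetic markers, nearly all Chrna3, which is not limited to sympathetic neurons, were at 45.1 to 95.6 CPM in sham and at 37.6, 0.762, 0.889 and 2.23 CPM in SNT, the 37.6 being SNT library 1. Chrna3 was not called (log2 -2.88, edgeR adjusted p 0.0792). Dbh was at 0 to 3 counts in every rat library.

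Near the 7 genes the study's mouse catalogue of assembled LncRNAs (long non-coding RNAs) held 3 within 100 kb. LncRNA5775 (chromosome 9, 121475955 to 121496904, plus strand) spans Cck on the opposite strand with 0 bases of exon overlap, and had 0.856 ± 0.142 CPM (SD, n = 6) in BALB/c sham and 0.810 ± 0.0735 CPM (SD, n = 4) in SNI (log2 -0.09, edgeR adjusted p 0.872). LncRNA7596, on the opposite strand with 22062 bases between it and Gal, had 2.78 ± 0.364 CPM (SD, n = 6) in BALB/c sham and 2.82 ± 0.679 CPM (SD, n = 4) in SNI (log2 0.01, edgeR adjusted p 0.972). LncRNA3401, with 61748 bases between it and Gal, had an edgeR adjusted p of 0.598 for BALB/c and 0.273 for B10.D2. Of the 3, 0 were called in either SNI comparison.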

How the data were processed

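Whole DRG RNA was sequenced from 20 mouse and 8 rat libraries, grouped by strain and surgery from the sample labels. The deposited values are raw counts of reads per gene: per the submitters' notes the authors used STAR, SAMtools and HTSeq with mm10 and rn6 and tested with DESeq2, and tool versions are not given in the sources used here. Columns that hold the authors' own fold changes and p-values were not used. Mouse samples 59 and 66, which are labelled but have no column, were not analysed here.

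The deposited count table of each species holds annotated genes together with LncRNAs that the authors assembled. Counts were scaled by TMM, filtered with filterByExpr and fitted in edgeR 4.0.16 (R 4.3.3) by glmQLFit and glmQLFTest, its quasi-likelihood test, with 4 strain and surgery groups and sex in mouse and condition alone in rat. P-values were adjusted by Benjamini-Hochberg over all features, and an adjusted p under 0.05 was called. CPM were taken over the TMM-scaled total, and SE is the log2 change over the root of F. The fit was tested on simulated data. Alternatives were RLE scaling, DESeq2 1.42.0, other count filters, no sex term, 1 sex or strain alone, a block for the number shared by rat library names and leaving out each library. Mouse libraries are 1 animal each and rat libraries are pools, so p-values measure the spread between animals and between pools.

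The genes and lists were chosen with earlier results of these data known. All 7 genes are named. From the receptor, processing and other neuropeptide lists at most the 3 called genes of smallest p per comparison are named, with marker genes a sentence turns on, and for each gene tested in mouse the 3 genes of highest correlation. Figures were drawn with Python 3.11.15, pandas 2.3.3 and matplotlib 3.10.9. Counts were matched to GENCODE M21 for 49326 of 49585 mouse identifiers.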

Additional observations from a re-analysis of the deposited data

Results flagged for a closer look

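Of 42 groups of 4 to 6 libraries checked for a library far from the others, 7 held one. The check marks about 1 group in 20 by chance where values are independent and normally distributed. Genes of the same libraries and values of 0 or 1 count are not, so the 7 cannot be set against that rate. Rat sham library 4 stood above the other sham libraries for 4 genes: Gal at 283.9 CPM (others 82.7 to 90.1), Adcyap1 at 268 CPM (others 74.7 to 101), Vip at 41.4 CPM (others 10.4 to 13.4) and Cck at 10.49 CPM (others 1.28 to 2.07). B10.D2 SNI library 76 was low for Crh, at 0.306 CPM (others 0.532 to 0.606). For rat Npy, sham library 2 at 0.0610 CPM and SNT library 3 at 0 CPM differ from the rest by 1 count. The change of Gal after SNI differed between the mouse strains by -2.37 on the log2 scale in the interaction test of edgeR (adjusted p 0.0140).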

How the results depend on the processing

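Among the injury comparisons, the 5 genes called in BALB/c and the 4 in B10.D2 were 5 and 4 in every fit that left out 1 library, and in rat 3 to 5 were called, with 4 in the full data and 5 without sham library 4 and SNT library 1 together, which was chosen after seeing the data. The interaction called 1 gene in each such fit and 0 in males only and 0 in females only. The sex term called 0 throughout these fits. In sham the strain difference called 2 genes, 1 without a filter, with at least 10 counts in every library, with DESeq2 or without the sex term, 0 in males only and in females only, and 0 to 3 without 1 library. In SNI it called 2, 1 with at least 10 counts in every library, and 2 to 3 without 1 library. The cause was not tested, except that fewer genes or libraries enter the filtered and single-sex fits.

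Signs turned for values that were not called. The interaction of Cck was -0.11 to 0.30 without 1 library and -0.38 in females only. In sham the strain difference of Npy was -0.36 to 0.27 without 1 library and 0.22 in females only, that of Nts was -0.16 to 0.091, and that of Gal was 0.26 in females only. In SNI the strain difference of Adcyap1 was -0.14 to 0.014 without 1 library and 0.0076 in males only. The rat change of Nts was -0.022 to 0.31. Of the other single-gene values, 593 kept direction and side of the threshold, 27 lost the call and 7 gained it.

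With the number that a sham and an SNT library name share as a replicate block in rat, whose meaning the labels do not give, 4 genes were called, and 2558 features in place of 3753. Correlations of libraries with the same number were 0.05, -0.293, -0.114 and -0.0936, and those of libraries with different numbers were -0.557 to 0.487. With so few libraries and so wide a spread, these values cannot show whether the numbers pair the libraries. Counts limit Vip and Cck in mouse and Npy in rat.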

Other observations

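Between the strains in sham, 8 of 16 receptor genes tested were called (4 higher and 4 lower in B10.D2) and 4 of 13 processing genes (3 higher and 1 lower), where 21.6% of all features were. The genes named next were chosen after their values were seen. Galr2, a receptor of galanin, was at 3 to 7 counts per library in B10.D2 sham and at 38 to 45 in BALB/c sham, or 0.138 and 1.12 CPM on average (log2 -3.004, SE 0.254, edgeR adjusted p 9.65e-09), and after SNI it was at 0.175 and 1.03 CPM. Galr1 went the other way, at 9.24 CPM in B10.D2 and 5.83 CPM in BALB/c sham (log2 0.66, SE 0.148, edgeR adjusted p 0.00201). Scg5, a chaperone of the convertase Pcsk2, was at 65.3 to 71.9 CPM in B10.D2 sham and at 272 to 303 CPM in BALB/c sham (log2 -2.07, SE 0.0569, edgeR adjusted p 6.09e-17). None of these 3 genes was called in edgeR in the SNI comparison of either strain.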
